A study of Sus scrofa with 9 samples.

Results

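Pigs 31, 33 and 34 of Group 3 (No NRP + HOPE 2 h) were compared with pigs 24, 25 and 29 of Group 2 (NRP + SCS 2 h) in heart RNA from 1 myocardial biopsy of the apex per heart. A gene entered the comparison when it had at least 1 TPM (transcript abundance from reads scaled for gene length and for a common total) in at least 3 of these 6 hearts. This held for 11236 of the 25149 genes listed, of which 7993 carried a symbol, and the remaining 13913 were not tested. A gene of low level could enter through the hearts of either group alone, and its separation is then partly set by the filter. All animals were female American Yorkshire pigs of 4 to 6 months, and every heart underwent 15 min of warm ischemia after circulatory death.

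In Group 2, normothermic regional perfusion (NRP) followed for 60 min, during which warm blood with oxygen flows again through the organs inside the donor. Static cold storage (SCS) at 4 °C then lasted 2 h. Group 3 hearts received 0 min of NRP and spent 2 h under hypothermic oxygenated perfusion (HOPE) at 8 °C, on a device primed with cardioplegic solution and packed red blood cells. NRP, the storage method and the storage temperature changed together, and their parts in any difference cannot be told apart. All hearts were next reanimated for 2 h by normothermic machine perfusion (NMP) outside the body, and the biopsy was taken at its end, so that the values describe tissue after warm reperfusion. Pigs 27, 28 and 30 form Group 1 (NRP + HOPE 24 h), whose hearts had the same warm ischemia and NRP as Group 2 and 24 h of HOPE at 8 °C. Their values are given only side by side, because their storage also differed in duration.

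Warm ischemia stops oxidative ATP production in heart muscle, and reperfusion exposes the tissue to misfolded proteins, calcium overload and an inflamed vessel wall. The heat shock response refolds proteins, AMP-activated protein kinase (AMPK) senses a low energy charge and redirects fuel use, and endothelial cells display adhesion molecules that recruit leukocytes. The Z-disc and its partners anchor the contractile filaments and pass mechanical load on to signals in the cardiomyocyte.

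The labels call the cells cardiomyocytes, whereas the biopsies held a mixture. The 8 listed cardiomyocyte markers summed to between 27750 and 37980 TPM in Group 2 and between 27650 and 38290 TPM in Group 3, and the 11 endothelial markers to between 494 and 1027 TPM over the 6 hearts. In such bulk tissue, fewer cells of a type and less RNA per cell cannot be told apart. The 13 mitochondrially encoded protein genes took 50.2 ± 2.19% (SD, n = 3) of all TPM in Group 2 and 49.6 ± 5.12% in Group 3 (exact permutation test, two-sided, p = 0.9). Read counts were not used here and depth is unknown, so no counting interval is given. An entry of 0 is not evidence of absence, since TPI1 and FTL, genes that every cell uses, were also listed at 0 in all 9 hearts.

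Few genes differed beyond the spread between hearts once all genes were taken into account. With an adjusted p under 0.05 from limma and an absolute log2 fold change over 1, on the log2(TPM + 1) scale used throughout, 2 genes rose (0.0178% of those tested) and 6 fell (0.0534%) in Group 3, 8 in all (0.0712%). This scale understates the change of genes near 1 TPM. Where the unadjusted p was under 0.05 and the fold criterion was kept, 150 genes were higher (1.33%) and 230 lower (2.05%), 3.38% in both directions together. The 3 hearts of Group 3 lay entirely above those of Group 2 in 497 genes (4.42%) and entirely below them in 1182 (10.5%), 14.9% together. The median log2 fold change over all genes was -0.08, and it was 0.00 after median-of-ratios scaling.

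The balance between the directions was not stable. Of the genes past the unadjusted threshold 60.5% were lower, but 49.4% were lower after median-of-ratios scaling (182 higher, 178 lower), 51.6% after quantile normalization and 48.6% with array weights. Without pig 31, 372 genes were higher and 179 lower, whereas without pig 34 the counts were 117 and 375, and without pig 33 they were 171 and 369. Without pig 29 of Group 2, 218 genes were higher and 357 lower. The median-of-ratios factors, which compare the typical gene of a heart with that of all hearts, were 0.78 for pig 31, 1.08 for pig 33 and 1.19 for pig 34, and between 1.06 and 1.08 in Group 2. What sets the factor of pig 31 was not tested.

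**Figure D1:**
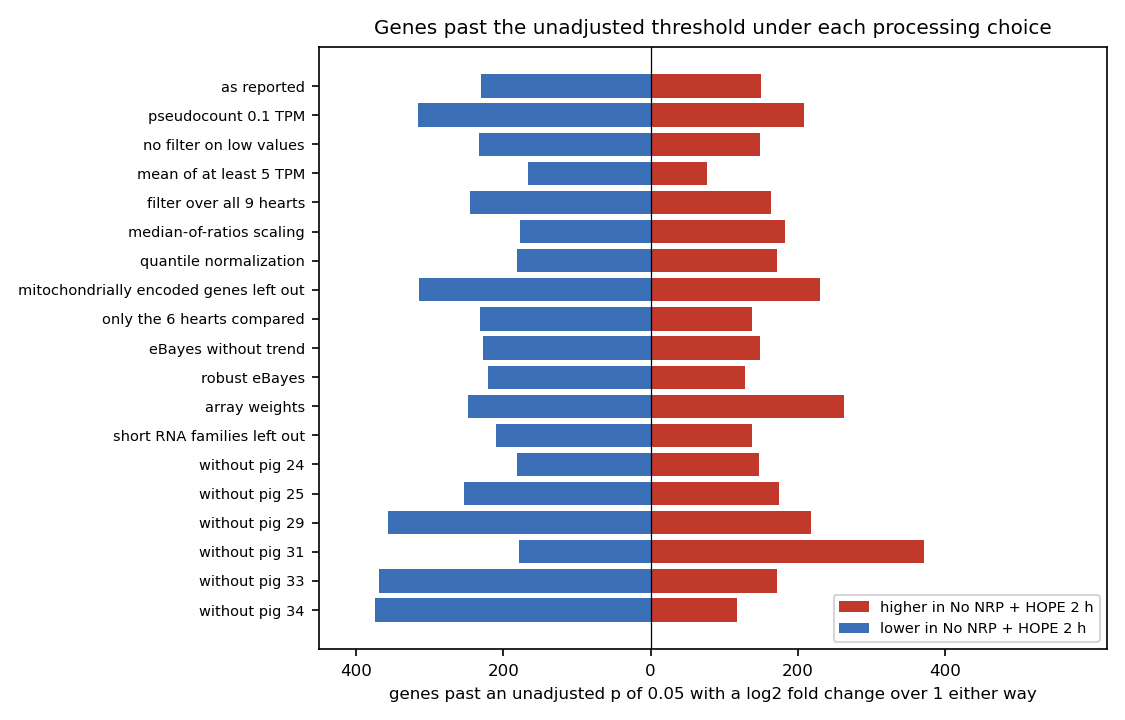
Number of genes past an unadjusted limma p of 0.05 with an absolute log2 fold change over 1 (horizontal axis), higher (red, right) or lower (blue, left) in No NRP + HOPE 2 h than in NRP + SCS 2 h, for the reported fit and 18 alternatives (rows). The reported bars end at 150 and 230, and leaving out pig 31 turns the balance to 372 and 179.

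HAS1, which encodes a membrane enzyme that extrudes hyaluronan into the extracellular matrix, rose most among the called genes. Its level was 16.4, 9.88 and 14.6 TPM in the Group 2 hearts and 90.3, 145 and 62.0 TPM in those of Group 3. Even the lowest heart of Group 3 was above the highest of Group 2 (log2 fold change 2.72, SE 0.37, adjusted p = 0.0169). Group 1 hearts lay between the groups, at 24.1, 43.5 and 49.0 TPM. The call was lost without pig 25 (adjusted p = 0.0819) and with no filter on low values (0.0643), and the log2 fold change stayed between 2.40 and 3.01 with any of the 6 hearts left out.

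Of the 14 tested genes of hyaluronan synthesis, turnover and binding, HAS1 alone passed upwards, and PTX3 passed the unadjusted threshold downwards, beside 1.33% and 2.05% of all genes at that threshold. PTX3 encodes pentraxin 3, a secreted pattern recognition protein that also cross-links hyaluronan-rich matrix. It had 97.9, 122 and 35.4 TPM in Group 2 and 10.2, 22.9 and 10.6 TPM in Group 3, with no overlap (log2 fold change -2.38, SE 0.44, adjusted p = 0.0862). Group 1 hearts, at 71.9, 104 and 125 TPM, had levels within or just above the range of Group 2. CD44, the main hyaluronan receptor, had a log2 fold change of -0.56 with overlapping hearts, and VCAN, the hyaluronan-binding proteoglycan versican, one of 0.04, also overlapping. The median over the list was 0.17, and 0.05 without pig 33 or 0.07 without pig 25.

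DNAJB1, a cochaperone that delivers clients to the HSP70 chaperones and is a classical target of the heat shock factor HSF1, also rose. It was nearly level in Group 2, at 38.0, 42.5 and 43.5 TPM, and reached 310, 123 and 189 TPM in Group 3. No heart of Group 3 came near the Group 2 range (log2 fold change 2.20, SE 0.32, adjusted p = 0.0169). In Group 1 the values were 45.5, 38.4 and 43.8 TPM, within a few TPM of Group 2. The call was lost in 7 of the 18 alternatives. Its adjusted p was then 0.0643 with no filter on low values, 0.0587 with quantile normalization, 0.0724 after median-of-ratios scaling and 0.0563 in the fit to the 6 hearts alone, and it exceeded 0.05 on leaving out pig 24 (0.115), pig 25 (0.0923) or pig 31 (0.0502), while the log2 fold change stayed between 1.86 and 2.52 with any heart left out.

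The other 18 tested genes of the heat shock list did not pass. HSPH1, a nucleotide exchange factor for HSP70, had an unadjusted limma p under 0.05 but failed on the fold, at 36.7, 35.3 and 30.3 TPM against 89.8, 46.2 and 53.4 TPM, without overlap (log2 fold change 0.81, adjusted p = 0.581). The DNAJB1 relative DNAJA1 had 127, 122 and 156 TPM in Group 2 and 173, 175 and 208 TPM in Group 3, again without overlap (log2 fold change 0.46, adjusted p = 0.757). HSPA8, the constitutive HSP70, had a log2 fold change of 0.01, BAG3 of 0.31 and HSP90AA1 of 0.31, each with overlapping hearts. The inducible HSP70 gene HSP70.2 was listed at 0 in all 9 hearts and could not be compared. Among the regulators, HSF2 had 36.0, 16.6 and 23.9 TPM in Group 2 and 9.01, 12.2 and 17.3 TPM in Group 3, with pig 34 above the lowest Group 2 heart, and likewise failed on the fold (log2 fold change -0.92, adjusted p = 0.591). HSF1 had 45.1, 41.9 and 34.0 TPM in Group 2 and 24.5, 32.1 and 31.3 TPM in Group 3, below and without overlap but not past the test (log2 fold change -0.45, adjusted p = 0.821). The list as a whole had a median log2 fold change of -0.09, beside -0.08 for all genes, and of 0.01 after median-of-ratios scaling. Entirely above Group 2 were 3 of the 19 members and entirely below were 3, beside 4.42% and 10.5% of all genes. At the unadjusted threshold with the fold, 1 passed upwards and 0 downwards, beside 1.33% and 2.05% of all genes. Without pig 33, 2 passed upwards, and without pig 25 or pig 34, 1 passed downwards.

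**Figure D2:**
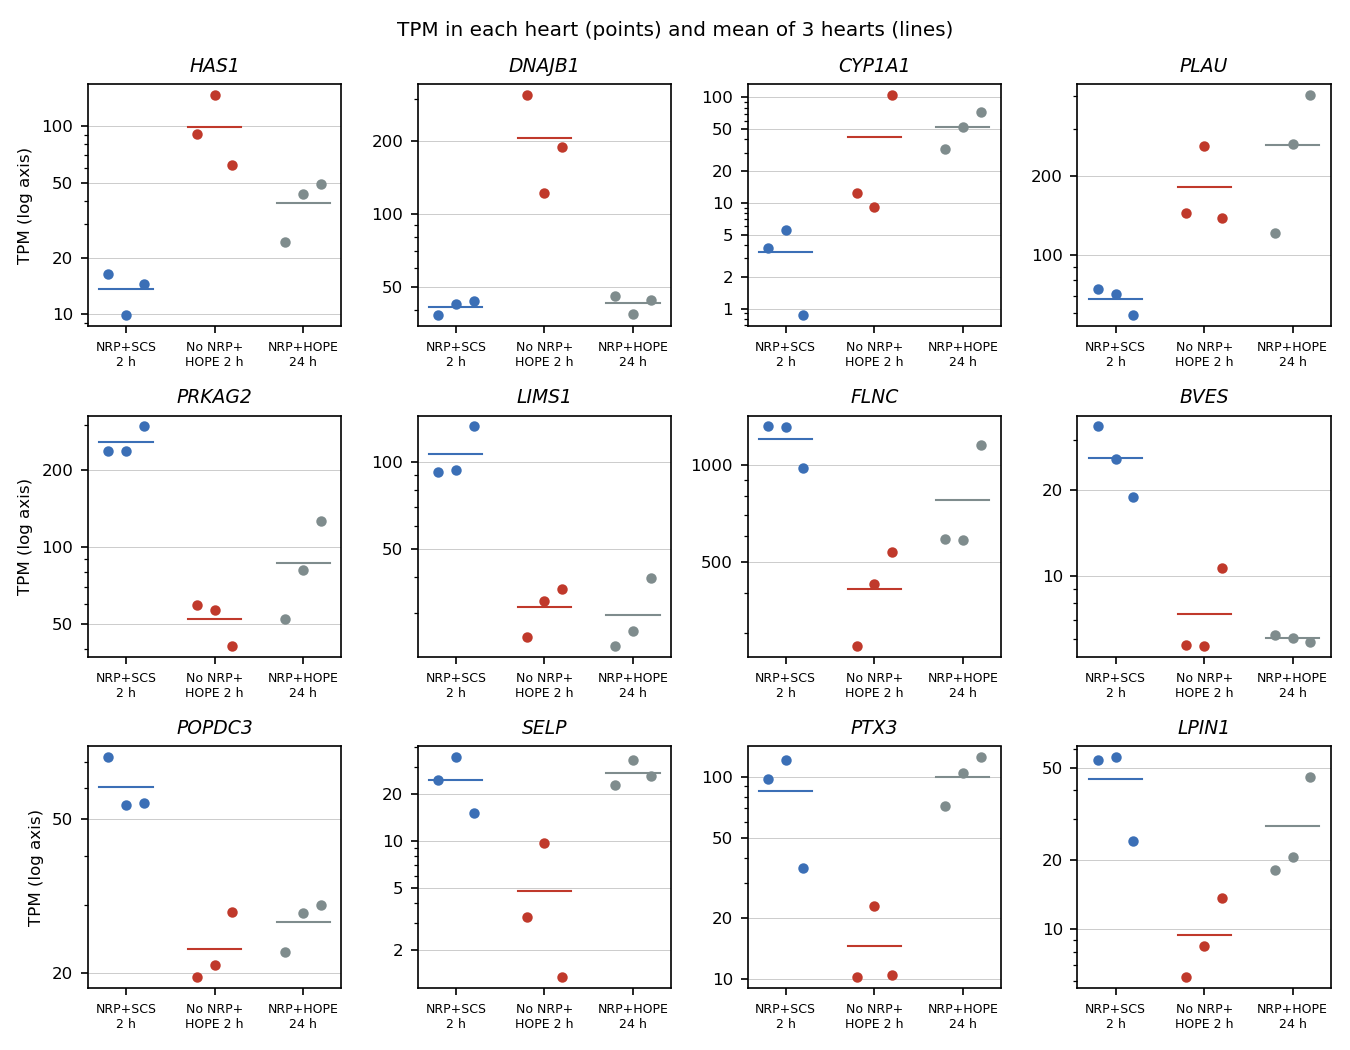
TPM of 12 named genes (vertical axes, log scale, 1 panel per gene) in each heart of NRP + SCS 2 h (blue), No NRP + HOPE 2 h (red) and NRP + HOPE 24 h (grey), where points are hearts and lines are group means. Red and blue points do not overlap in any panel, and the grey points lie near blue for DNAJB1, SELP and PTX3 and near red for BVES, LIMS1 and POPDC3.

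PRKAG2, which encodes the gamma-2 regulatory subunit of AMPK, the subunit type that binds AMP, fell. It stood at 238, 239 and 297 TPM in Group 2 and at 59.3, 56.6 and 40.8 TPM in Group 3, with a wide gap between the groups (log2 fold change -2.30, SE 0.32, adjusted p = 0.0169). Group 1 hearts had 52.1, 81.0 and 127 TPM, all below the lowest heart of Group 2. The call was lost without pig 24 (adjusted p = 0.0764), without pig 25 (0.0819) and with no filter on low values (0.0643), and the log2 fold change stayed between -2.39 and -2.13 with any heart left out.

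No other of the 18 tested AMPK genes passed either threshold with the fold over all hearts. At the unadjusted threshold with the fold, PRKAG2 included, 1 was lower over all hearts, 2 without pig 29 and 3 without pig 34, beside 2.05% of all genes. The beta-2 subunit PRKAB2 had 10.0, 5.53 and 2.32 TPM in Group 2 and 2.07, 1.99 and 2.32 TPM in Group 3 (log2 fold change -0.99, adjusted p = 0.617), and its highest Group 3 heart was just below the lowest of Group 2. The gamma-1 subunit PRKAG1 had 21.5, 20.3 and 19.3 TPM against 22.9, 22.7 and 30.4 TPM, slightly above and without overlap (log2 fold change 0.29, adjusted p = 0.886). PFKFB2, a glycolytic regulator that AMPK phosphorylates in heart, had 25.2, 22.4 and 22.9 TPM in Group 2 and 6.90, 9.52 and 24.2 TPM in Group 3. Only pig 34 reached the Group 2 level, and the gene did not pass (log2 fold change -0.94, adjusted p = 0.67). Entirely above Group 2 was 1 of the 18 members and entirely below were 4, beside 4.42% and 10.5% of all genes. The list had a median of -0.21, and of -0.07 without pig 31.

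Among 27 tested genes of glycolysis and glycogen, 2 passed the unadjusted threshold, both downwards, beside 2.05% of all genes. Without pig 33 there was 1, and without pig 34 there were 3. PDK4, a kinase that shuts off pyruvate dehydrogenase and is switched on by fasting and glucocorticoids, had 379, 314 and 318 TPM in Group 2 and 208, 102 and 175 TPM in Group 3 (log2 fold change -1.11, SE 0.31, adjusted p = 0.356). GBE1, the glycogen branching enzyme, had 7.29, 4.94 and 8.19 TPM against 2.03, 2.36 and 2.95 TPM (log2 fold change -1.16, SE 0.38, adjusted p = 0.46). Both lay below Group 2 in every heart, as did PDK2, another pyruvate dehydrogenase kinase, at 38.4, 35.9 and 30.0 TPM against 17.7, 21.0 and 19.5 TPM (log2 fold change -0.81, adjusted p = 0.628). Entirely below Group 2 were 4 of the 27 members (14.8%), near the 10.5% of all genes, and 0 lay entirely above (4.42% of all genes). LDHA, a lactate dehydrogenase subunit, had a log2 fold change of 0.48 with overlapping hearts, and the median of the list was -0.22, or -0.10 without pig 25.

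In fatty acid metabolism 1 of 23 tested genes passed the unadjusted threshold, beside 3.38% of all genes. It was 3 without pig 25, 2 without pig 24 or pig 31, and 0 without pig 29 or pig 34. PLIN5, which tethers lipid droplets to mitochondria, was low in all hearts, at 1.10, 1.54 and 0.38 TPM in Group 2 and 3.04, 2.56 and 5.31 TPM in Group 3 (log2 fold change 1.21, SE 0.41, adjusted p = 0.489). PLIN5 met the filter only with its Group 3 hearts. SLC25A20, the carnitine-acylcarnitine carrier of the inner mitochondrial membrane, had 5.57, 11.3 and 7.99 TPM against 12.8, 14.0 and 21.8 TPM (log2 fold change 0.90, adjusted p = 0.666). ANGPTL4, a secreted inhibitor of lipoprotein lipase, had 107, 93.2 and 34.3 TPM against 127, 126 and 123 TPM (log2 fold change 0.83, adjusted p = 0.656). The hearts did not overlap in these 3 genes or in HADHA, beside 4.42% of all genes entirely above. The median of the list was 0.17, and it lay between -0.06 (without pig 34) and 0.29 (without pig 31). LPIN1, a phosphatidate phosphatase and coactivator of fatty acid oxidation genes, was named by its rank and had 54.0, 55.2 and 24.1 TPM in Group 2 and 6.20, 8.50 and 13.6 TPM in Group 3. Every Group 3 heart was below Group 2 (log2 fold change -2.09, SE 0.42, adjusted p = 0.0977), and Group 1 overlapped Group 2, at 18.0, 20.5 and 45.5 TPM.

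LIMS1, PDLIM4 and FLNC were among the lower genes named by rank. LIMS1 (named from the reference table), an adaptor that links integrins to the actin cytoskeleton, had 92.6, 93.7 and 133 TPM in Group 2 and 24.8, 32.9 and 36.4 TPM in Group 3 (log2 fold change -1.73, SE 0.30, adjusted p = 0.0613). PDLIM4, which binds alpha-actinin, had 45.4, 56.3 and 27.4 TPM against 6.61, 8.60 and 10.1 TPM (log2 fold change -2.18, SE 0.39, adjusted p = 0.075). FLNC, the muscle filamin that cross-links actin at the Z-disc, had 1318, 1315 and 976 TPM against 272, 425 and 534 TPM (log2 fold change -1.59, SE 0.32, adjusted p = 0.094). The groups were far apart in all 3 genes, although none passed the adjusted threshold in the reported fit. LIMS1 passed it in 7 of the 18 alternatives, PDLIM4 in 8 and FLNC in 4. Group 1 hearts had 23.0, 25.9 and 39.8 TPM of LIMS1, close to Group 3, and 19.3, 20.1 and 51.0 TPM of PDLIM4, above all Group 3 hearts.

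In the list of 26 tested sarcomere and Z-disc genes, 3 passed the unadjusted threshold, all downwards, where 2.05% of all genes did, and 5 passed without pig 29 or without pig 34. Entirely below Group 2 were 8 members, beside 10.5% of all genes, and 0 lay entirely above (4.42% of all genes). Beside PDLIM4 and FLNC, the stretch-responsive ankyrin repeat gene ANKRD2 passed it, at 50.0, 47.9 and 24.6 TPM in Group 2 and 2.57, 32 and 8.60 TPM in Group 3 (log2 fold change -1.94, SE 0.63, adjusted p = 0.46). Pig 33 was within the Group 2 range for ANKRD2, so its hearts overlapped, and the log2 fold change lay between -2.77 (without pig 33) and -1.07 (with array weights) over the alternatives. Its relative ANKRD1 had 5009, 4632 and 3790 TPM against 1589, 2285 and 3070 TPM without overlap (log2 fold change -0.99, adjusted p = 0.386), as did NEXN, an actin-binding Z-disc protein, at 812, 635 and 825 TPM against 342, 503 and 437 TPM (log2 fold change -0.83, adjusted p = 0.386). The troponin genes TNNT2 and TNNI3 had log2 fold changes of 0.05 and -0.06 and the myosin heavy chain gene MYH7 one of -0.17, each with overlapping hearts, while 23 of the 26 members had a negative value. The median of the list was -0.34, and it lay between -0.47 (without pig 34) and -0.15 (without pig 31).

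BVES and POPDC3, neighbouring genes that encode cyclic AMP-binding membrane proteins of the Popeye family with roles in cardiac conduction, were both below Group 2. BVES had 33.5, 25.7 and 18.9 TPM in Group 2 and 5.71, 5.65 and 10.6 TPM in Group 3 (log2 fold change -1.71, SE 0.33, adjusted p = 0.0914). POPDC3 had 71.8, 54.2 and 54.8 TPM against 19.5, 21.0 and 28.8 TPM (log2 fold change -1.35, SE 0.28, adjusted p = 0.0981). Neither passed the adjusted threshold, and in both genes the hearts were clearly separate. Group 1 had 6.18, 6.05 and 5.85 TPM of BVES and 22.7, 28.5 and 29.9 TPM of POPDC3, all below every Group 2 heart. The remaining family member POPDC2 overlapped between the groups (log2 fold change -0.26).

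Of the 20 tested genes for ion channels, pumps and junctions, which include the Popeye genes, 1 passed the unadjusted threshold upwards and 3 downwards, beside 1.33% and 2.05% of all genes. ATP1B4, related to the beta subunits of the sodium-potassium pump but in mammals a protein of the muscle nuclear envelope, had 40.6, 17.1 and 36.5 TPM against 7.01, 12.2 and 18.8 TPM (log2 fold change -1.25, SE 0.44, adjusted p = 0.511), with pig 34 above the lowest Group 2 heart. The gap junction gene GJA1 had a log2 fold change of -0.41 with overlapping hearts. The natriuretic peptide genes NPPA (-0.18) and NPPB (0.12) varied widely between hearts of the same group, NPPA from 23.2 to 411 TPM within Group 2. The 8 tested natriuretic peptide and stretch genes had a median of -0.27, which lay between -0.46 (without pig 34) and -0.03 (without pig 31), and 0 passed, or 1 downwards without pig 29, 33 or 34.

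**Figure D3:**
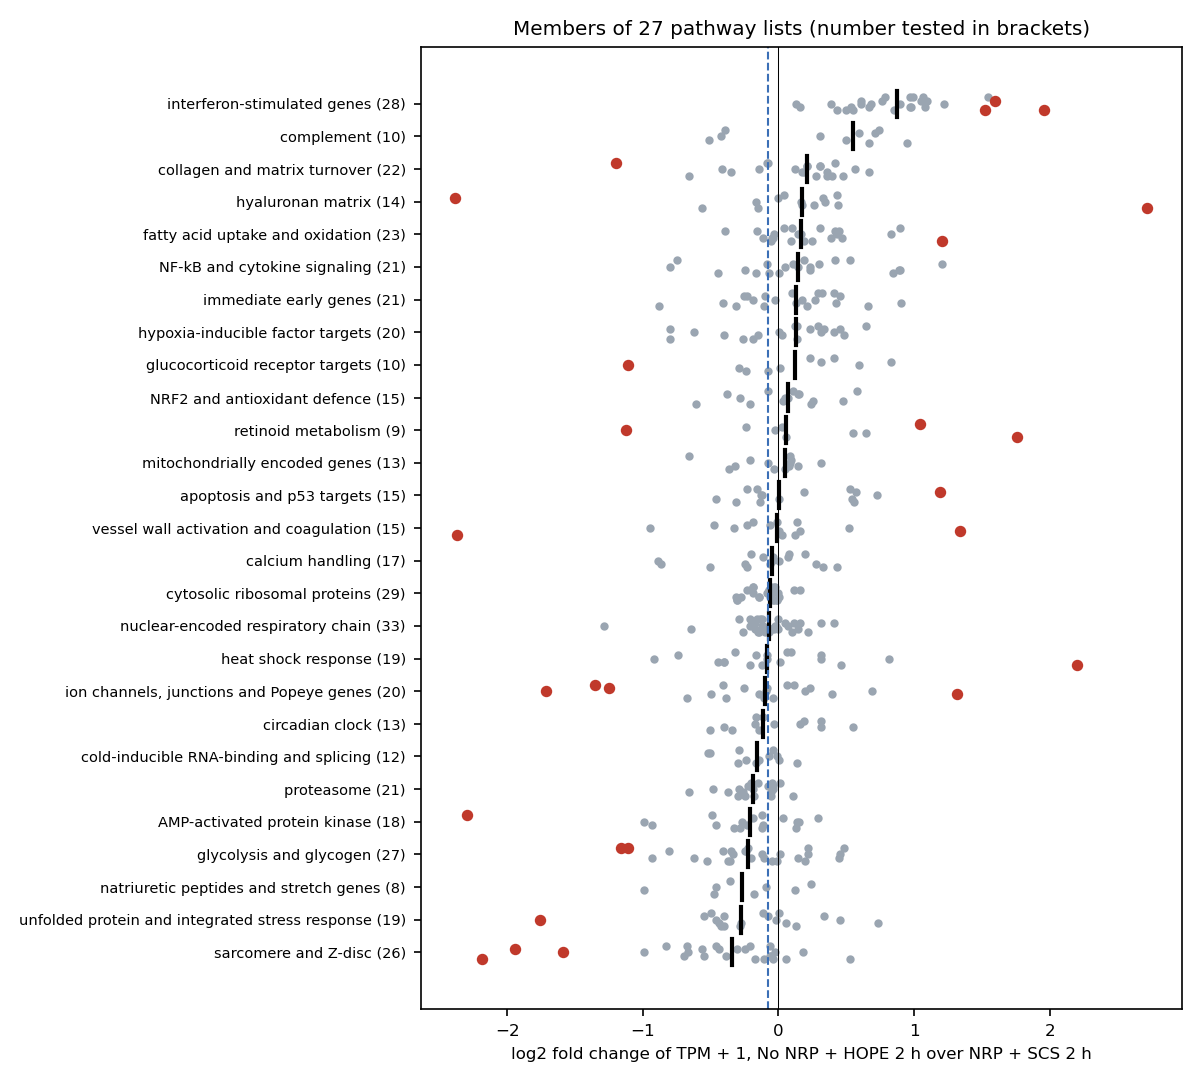
Log2 fold change of TPM + 1 in Group 3 over Group 2 (horizontal axis), of the tested members of 27 pathway lists (rows, ordered by median, number tested in brackets). Grey points did not pass the unadjusted threshold with the fold, red points did, black bars are list medians from -0.34 (sarcomere and Z-disc) to 0.87 (interferon-stimulated genes), and the dashed line is the median of all genes, -0.08.

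The vessel wall genes differed in direction. SELP, which encodes P-selectin, stored in endothelial cells and platelets and displayed to capture leukocytes, had 24.8, 34.4 and 15.1 TPM in Group 2 and 3.25, 9.70 and 1.34 TPM in Group 3 (log2 fold change -2.37, SE 0.47, adjusted p = 0.094). The Group 3 hearts were all lower and spread widely among themselves. In Group 1 the values were 22.8, 33.2 and 26.0 TPM, within the range of Group 2. VCAM1, a further leukocyte adhesion molecule, had 119, 139 and 114 TPM against 32.9, 62.1 and 124 TPM, where pig 34 lay within the Group 2 range (log2 fold change -0.95, adjusted p = 0.601). XDH, which encodes xanthine oxidoreductase, a source of oxidants on reperfusion, was named by its rank, with 87.1, 61.6 and 83.4 TPM in Group 2 and 25.3, 23.6 and 36.4 TPM in Group 3 (log2 fold change -1.42, SE 0.29, adjusted p = 0.0977).

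PLAU, which encodes urokinase, an activator of plasminogen, had 74.1, 70.9 and 59.0 TPM in Group 2 and 144, 260 and 138 TPM in Group 3, all above (log2 fold change 1.34, SE 0.39, adjusted p = 0.386). Group 1 reached 121, 263 and 402 TPM. PLAU and SELP were the 2 of 15 tested vessel wall and coagulation genes past the unadjusted threshold, beside 3.38% of all genes, and the lower count was 2 without pig 29 or pig 34. The median of that list was -0.01, and it lay between -0.20 (without pig 33) and 0.13 (without pig 31). Endothelial identity genes such as PECAM1 (-0.42), KDR (-0.57) and VWF (-0.33) had overlapping hearts, with pig 31 lowest of the 6 in each, and the median of the 11 endothelial markers went from -0.33 to 0.04 without that pig.

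Of 22 tested genes of collagen and matrix turnover, 1 passed the unadjusted threshold, 3 lay entirely above Group 2 and 3 entirely below, beside 3.38%, 4.42% and 10.5% of all genes, and 0 passed without pig 34. The median was 0.21, and it lay between 0.02 (without pig 33) and 0.33 (without pig 31). ADAMTS9, a secreted protease that cleaves the proteoglycan versican, had 58.3, 50.8 and 35.6 TPM against 16.8, 32.3 and 14.8 TPM (log2 fold change -1.20, SE 0.37, adjusted p = 0.439). The fibrillar collagen gene COL3A1 lay slightly above without overlap, at 280, 417 and 475 TPM against 496, 495 and 479 TPM (log2 fold change 0.36, adjusted p = 0.844), and POSTN, the matricellular gene periostin, below, at 23.0, 24.5 and 33.0 TPM against 13.9, 17.2 and 18.3 TPM (log2 fold change -0.66, adjusted p = 0.68). The 7 fibroblast markers summed to between 723 and 1050 TPM in Group 2 and between 1105 and 1224 TPM in Group 3, without overlap. Of these markers 5 had a positive log2 fold change and 2 a negative one. Entirely above Group 2 were 3 and entirely below was 1, beside 4.42% and 10.5% of all genes. Their median was 0.27, and 0.05 without pig 24. The part of the difference in fibroblast markers in the matrix genes was not tested.

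All 28 tested interferon-stimulated genes had a positive log2 fold change, with a median of 0.87, but the values were uneven between hearts. Pig 34 was the highest of the 6 hearts in 27 of these genes, and its median distance from the Group 2 mean was 2.44 on the log2 scale, against -0.49 for pig 31 and 0.59 for pig 33. MX1, an antiviral GTPase, had 26.5, 41.3 and 24.1 TPM in Group 2 and 29.6, 77.2 and 335 TPM in Group 3, and IFIT1, which binds foreign RNA caps, was likewise highest in pig 34, at 272 TPM against 17.3 and 56.5 TPM in the other Group 3 hearts. These 2 and the exonuclease gene ISG20 passed the unadjusted threshold (adjusted p from 0.569 to 0.67), which makes 3 of 28 members where 1.33% of all genes passed upwards. TRIM25 was the single member entirely above Group 2, or 3.57% of the list, near the 4.42% of all genes. Without pig 34, 16 were higher, 12 lower, none passed and the median was 0.09, whereas without pig 31, 20 passed upwards and the median was 1.55. The passing members numbered 1 without pig 24 or pig 29 and 6 without pig 33. IRF7, a central factor of the pathway, was listed at 0 in all 9 hearts.

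**Figure D4:**
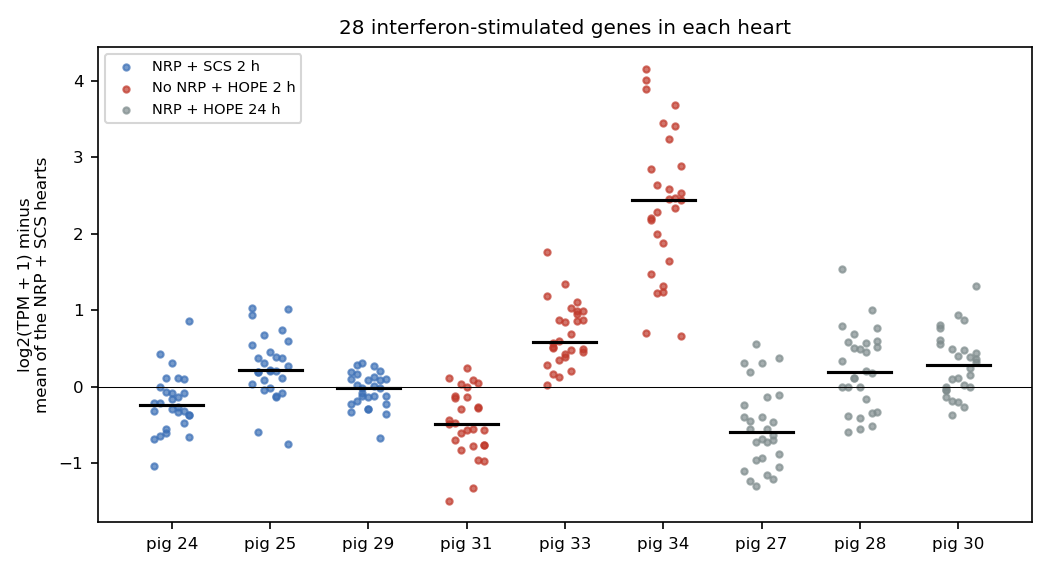
Difference of log2(TPM + 1) from the mean of the NRP + SCS hearts (vertical axis) for 28 interferon-stimulated genes (points) in each of the 9 hearts (horizontal axis), with the median of each heart as a black line. Pig 34 stands apart at a median of 2.44, and the other 8 medians lie between -0.60 and 0.59.

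Of 21 tested cytokine and NF-kB genes, 0 passed the unadjusted threshold with the fold, beside 3.38% of all genes. With a heart left out, 2 passed upwards without pig 29 or pig 31, 1 upwards without pig 25 or pig 34, and 1 downwards without pig 33. Entirely above Group 2 were 3 members and entirely below was 1, beside 4.42% and 10.5% of all genes. The median of 0.15 lay between -0.02 (without pig 29) and 0.27 (without pig 31), and it was 0.01 without pig 33. CD83, an activation marker of antigen-presenting and endothelial cells, had 11.8, 11.2 and 18.4 TPM in Group 2 and 23.7, 28.7 and 22.9 TPM in Group 3 (log2 fold change 0.85, adjusted p = 0.656), and Group 1 was higher still at 34.1, 50.1 and 98.2 TPM. TNIP1, an inhibitor of NF-kB signalling, had 100, 116 and 105 TPM against 49.5, 78.6 and 58.8 TPM (log2 fold change -0.80, adjusted p = 0.534). Both were free of overlap. The neutrophil attractant CXCL8 had a log2 fold change of 0.89 with overlapping hearts, and 0 of 21 immediate early genes passed over all hearts, with FOS at 0.66 and ATF3 at 0.91. Of the immediate early genes, 2 passed upwards without pig 31, 1 in each direction without pig 24 and 1 downwards without pig 29.

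Complement had the second highest median of the 27 pathway lists, 0.55 over 10 tested genes, but 0 passed (1 without pig 25 or pig 31) and the median was 0.17 without pig 34. CFD, complement factor D, had 99.9, 132 and 113 TPM in Group 2 and 184, 232 and 140 TPM in Group 3 (log2 fold change 0.67, adjusted p = 0.641), and SERPING1, the C1 inhibitor, had 109, 102 and 89.9 TPM against 120, 135 and 215 TPM (log2 fold change 0.60, adjusted p = 0.711). The hearts of both were separate, as were those of the complement factor C7, while CFP and the receptor C5AR1 lay below Group 2 without overlap, beside 4.42% of all genes above and 10.5% below.

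Of 15 tested cell death genes, MLKL, the executioner of necroptosis, passed the unadjusted threshold, at 9.88, 2.82 and 10.9 TPM in Group 2 and 11.2, 16.5 and 26.4 TPM in Group 3 (log2 fold change 1.19, SE 0.44, adjusted p = 0.556). GADD45B, induced by stress and cytokines, had 416, 350 and 306 TPM against 496, 585 and 699 TPM (log2 fold change 0.73, adjusted p = 0.451). RIPK1 (log2 fold change 0.54) and FAS (0.52) also had every Group 3 heart above Group 2. Such members numbered 4 of 15, and 0 lay entirely below, beside 4.42% and 10.5% of all genes. Members past the unadjusted threshold numbered 0 without pig 25 or pig 34 and 2 without pig 33. MLKL was highest in pig 34, the heart with the highest interferon-stimulated genes, and the median of the list was 0.01, between -0.15 (without pig 34) and 0.24 (without pig 31).

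Of 19 tested unfolded protein and integrated stress genes, 5 lay entirely below Group 2, where 10.5% of all genes did, and 0 entirely above (4.42% of all genes). Their median of -0.28 became -0.01 without pig 31 and -0.09 without pig 24. SESN2, a leucine sensor induced by amino acid and oxidative stress that restrains mTORC1, passed the unadjusted threshold, and 1 other member passed upwards without pig 24 or pig 31. SESN2 stood at 28.8, 17.5 and 13.3 TPM against 2.71, 8.63 and 4.69 TPM (log2 fold change -1.75, SE 0.39, adjusted p = 0.15). Group 1 hearts had 20.5, 29.9 and 20.5 TPM, at the Group 2 level.

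Of the 9 tested genes of retinoid metabolism, 2 passed the unadjusted threshold upwards and 1 downwards, beside 1.33% and 2.05% of all genes, and 3 lay entirely above and 1 entirely below Group 2, beside 4.42% and 10.5%. Without pig 31 or pig 33, 1 passed upwards. Among them are enzymes that make retinoic acid. ALDH1A1 had 0.98, 1.61 and 0.20 TPM in Group 2 and 5.18, 3.61 and 7.42 TPM in Group 3 (log2 fold change 1.76, SE 0.42, adjusted p = 0.226). ALDH1A1 met the filter only with its Group 3 hearts, so its place in these counts is partly set by the filter. ALDH1A3 had 26.4, 26.2 and 22.9 TPM against 12.8, 9.94 and 10.3 TPM (log2 fold change -1.13, SE 0.27, adjusted p = 0.224). Both were separate between the groups and past the unadjusted threshold only, and Group 1 had 24.2, 27.7 and 30.0 TPM of ALDH1A3, near Group 2. The related ALDH1A2 had between 6.50 and 10.5 TPM in Group 2 and between 11.1 and 14.7 TPM in Group 3, also separate but past neither threshold (log2 fold change 0.55, adjusted p = 0.793). The median of the list was 0.06, between -0.09 (without pig 33) and 0.26 (without pig 31).

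The remaining higher genes named by rank were mostly of low level. STAP1, an adaptor of B cell and myeloid tyrosine kinase signalling, had 1.27, 0.53 and 1.33 TPM against 4.08, 11.5 and 5.97 TPM (log2 fold change 1.93, SE 0.37, adjusted p = 0.0914). TCEAL9, a transcription elongation factor-like gene, had 2.78, 3.24 and 1.82 TPM against 9.80, 10.0 and 8.16 TPM (log2 fold change 1.53, SE 0.30, adjusted p = 0.094). MITF, a transcription factor of melanocytes that also acts in heart and mast cells, had 0.35, 0.51 and 2.5 TPM against 6.85, 3.93 and 5.26 TPM (log2 fold change 1.70, adjusted p = 0.306). Their hearts were all separate, and for STAP1 and TCEAL9 the 3 Group 1 hearts stayed near Group 2, at 1.27 to 1.81 and 2.53 to 3.55 TPM. STAP1 and MITF met the filter only with their Group 3 hearts, so their separation is partly set by the filter.

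CYP1A1, the cytochrome P450 best known as a target of the aryl hydrocarbon receptor, had 3.78, 5.55 and 0.86 TPM in Group 2 and 12.6, 9.12 and 104 TPM in Group 3. The hearts were separate, but pig 34 was far above pigs 31 and 33 (log2 fold change 2.65, SE 0.71, adjusted p = 0.348). The log2 fold change was 1.60 without pig 34 and 3.29 without pig 33. CYP1A1 met the filter only with its Group 3 hearts. TIPARP, a further target of that receptor that represses it, had 8.36, 9.26 and 5.76 TPM against 14.7, 32.3 and 31.8 TPM (log2 fold change 1.57, SE 0.41, adjusted p = 0.299). All 3 Group 1 hearts exceeded Group 2 in both genes, with 32.8, 52.3 and 72.1 TPM of CYP1A1 and 27.2, 77.8 and 60.6 TPM of TIPARP. SYT6, a synaptotagmin of vesicle fusion, was among the lower genes, at 10.9, 4.96 and 2.99 TPM against 0.34, 1.02 and 0.09 TPM (log2 fold change -2.20, SE 0.41, adjusted p = 0.0862). SYT6 met the filter only with its Group 2 hearts.

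The lowest adjusted p belonged to a gene without a symbol, ENSSSCG00000006286. It had 44.1, 59.0 and 24.2 TPM in Group 2 and 1.67, 3.38 and 0.57 TPM in Group 3, and fell, with every Group 3 heart far below the lowest of Group 2 (log2 fold change -3.95, SE 0.43, adjusted p = 0.00346). It passed in all 18 alternatives, and Group 1 had 28.0, 58.4 and 34.2 TPM, at the level of Group 2. ENSSSCG00000003836, also without a symbol, was listed at 3.16, 4.28 and 3.33 TPM in Group 2 and at 0 in pigs 31, 33 and 34 (adjusted p = 0.0169), with 1.10, 1.44 and 0.41 TPM in Group 1. This call was lost without pig 24 (adjusted p = 0.0764), pig 25 (0.117) or pig 31 (0.0611) and with only the 6 hearts compared (0.0563). ENSSSCG00000003836 met the filter through Group 2 alone, so its separation is partly set by the filter. A further called gene without a symbol had 41.5, 69.1 and 42.3 TPM against 13.7, 11.9 and 4.03 TPM (adjusted p = 0.0461) and lost the call in 12 alternatives.

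Short RNAs made up the other calls. SNORA8, a small nucleolar RNA that guides pseudouridylation of ribosomal RNA, had 11.2, 8.19 and 13.3 TPM in Group 2 and 1.76, 1.02 and 2.29 TPM in Group 3 (log2 fold change -2.15, SE 0.36, adjusted p = 0.0482). An RNA of another short family had 12.7, 12.3 and 13.9 TPM against 1.99, 2.31 and 3.88 TPM (log2 fold change -1.94, SE 0.31, adjusted p = 0.0365). Both were lower in every heart and lost the call in 10 and 7 alternatives. The spliceosomal RNA U12 (log2 fold change 2.15, adjusted p = 0.182) and the microRNA gene ssc-mir-101-2 (2.37, adjusted p = 0.266) were named among the higher genes. U12 was listed at 0 in 2 Group 2 hearts, ssc-mir-101-2 likewise. U12 and ssc-mir-101-2 met the filter only with their Group 3 hearts, so their separation is partly set by the filter. The libraries were enriched for polyadenylated RNA, and 226 short RNA family genes were tested. What their values measure in such libraries was not tested.

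Several lists had no passing member with all 6 hearts in the fit. None of 33 nuclear-encoded respiratory chain genes, 13 mitochondrially encoded genes, 29 cytosolic ribosomal proteins, 21 proteasome subunits, 17 calcium handling genes, 20 hypoxia-inducible factor targets, 15 antioxidant genes, 13 clock genes or 12 cold-inducible and splicing genes passed the threshold with the fold, where 3.38% of all genes did. Leaving out a heart changed this for some. Without pig 34, 2 calcium handling genes and 2 hypoxia targets passed downwards, and without pig 31 or pig 33, 1 respiratory chain gene did. Calcium handling also had 1 gene higher without pig 24 and 1 lower without pig 25, and the hypoxia targets 1 lower without pig 29. The medians of these lists ran from -0.19 (proteasome) to 0.13 (hypoxia targets). The direction of several turned with the processing: the ribosomal median was -0.06 as deposited and 0.04 after median-of-ratios scaling, the respiratory chain median -0.07 and 0.03. By log2 fold change 19 proteasome subunits were lower and 2 higher, and 26 ribosomal proteins lower and 3 higher. Entirely below Group 2 were 5 and 3 of them and entirely above 0, beside 10.5% and 4.42% of all genes. Without pig 31, 12 proteasome subunits were lower and 9 higher, and 14 ribosomal proteins lower and 15 higher. RBM3, the best known cold shock gene, had a log2 fold change of -0.24, and HIF1A itself had 121, 102 and 88.8 TPM against 34.7, 67.3 and 86.4 TPM, all below but not past the test (log2 fold change -0.80, adjusted p = 0.711). Of 10 glucocorticoid targets, PDK4 alone passed over all hearts, with 0 lower without pig 33 and 1 higher without pig 24 or pig 25, and FKBP5 (-0.29) and TSC22D3 (0.60) did not.

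The red cell genes that could be tested were higher in Group 3. Of 6 listed erythroid markers, 3 were tested, HBB, HBM and ALAS2. All 3 passed the unadjusted threshold upwards without overlap, beside 1.33% and 4.42% of all genes. ALAS2 met the filter only with its Group 3 hearts, so its place in this count is partly set by the filter. HBB, the adult beta globin, had 70.8, 132 and 78.4 TPM in Group 2 and 220, 368 and 220 TPM in Group 3 (log2 fold change 1.52, SE 0.52, adjusted p = 0.494), and Group 1 ranged from 73.5 to 420 TPM. Globin genes are similar copies, and the split of reads between them is uncertain. ALAS2, the heme synthesis enzyme of red cell precursors, had 0.61, 1.10 and 0.93 TPM against 2.93, 4.89 and 2.01 TPM (log2 fold change 1.14, adjusted p = 0.648). The defining gene SLC4A1 was at or near 0 in every heart. With pig 24, 29, 31 or 33 left out, 1 of the 3 passed.

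The white cell and surface markers differed from this pattern. The 8 listed neutrophil genes summed to between 6.38 and 17.0 TPM in Group 2 and between 1.82 and 6.22 TPM in Group 3, without overlap. Without S100A9, a choice made after seeing the data, the sums were 9.02, 3.98 and 4.59 TPM in Group 2 and 1.47, 6.03 and 2.92 TPM in Group 3, with overlap. Of the 3 tested members, S100A9, an abundant neutrophil alarmin, had 8.02, 4.78 and 1.79 TPM against 0.34, 0.20 and 0 TPM, below in every heart (log2 fold change -2.17, SE 0.46, adjusted p = 0.117). S100A9 met the filter through Group 2 alone, so its separation is partly set by the filter. ELANE, neutrophil elastase, had a log2 fold change of -0.14 with overlapping hearts, 1 of the 3 had a positive log2 fold change, and CSF3R and MPO were listed at 0 in all 9 hearts. The median of the 3 was -0.14, and it lay between -0.60 (without pig 33) and 0.30 (without pig 31). Summed macrophage markers ranged from 91.9 to 204 TPM in Group 2 and from 133 to 238 TPM in Group 3, T and NK cell markers from 23.1 to 46.7 and from 18.8 to 73.9 TPM, smooth muscle markers from 386 to 549 and from 484 to 571 TPM, and mesothelial markers from 68.0 to 84.6 and from 40.4 to 77.5 TPM, each with overlap. B cell (at most 6.30 TPM), nerve (9.07 TPM) and adipocyte (21.7 TPM) sums were low in all 6 hearts and overlapped. The part of blood and of cell composition in the gene differences above was not tested.

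**Figure D5:**
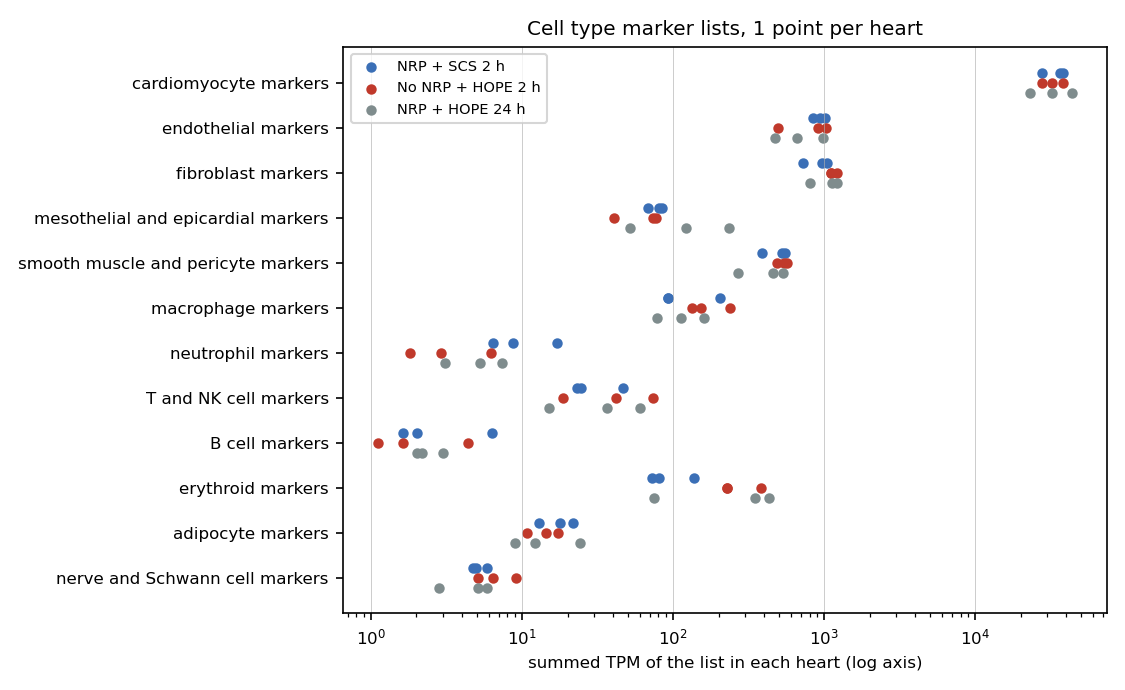
Summed TPM of 12 cell type marker lists (rows) in each heart (points, horizontal log axis) of NRP + SCS 2 h (blue), No NRP + HOPE 2 h (red) and NRP + HOPE 24 h (grey). The red erythroid points (226 to 379 TPM) lie above the blue (73.0 to 137 TPM), the red neutrophil points lie below the blue, which they overlap without S100A9, and the cardiomyocyte points overlap.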

How the data were processed

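The authors deposited TPM values per gene, 1 column per heart, each summing to 1000000 over 25149 genes. Per the submitters' processing notes, bcl2fastq 2.17, Trimmomatic 0.36, STAR 2.5.2b, featureCounts of Subread 1.5.2 and DESeq2 were used, and the genome build is not given in the sources used here. Libraries were enriched with oligo(dT) beads by a kit that does not mark strand, so that overlapping antisense genes cannot be told apart. A further 9 columns matched no sample and were not used, and the table holds 0 spike-in rows. In 12006 genes the table gives no name, and a reference name table named 754 of them.

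TPM are not counts, so limma 3.58.1 (R 4.3.3) was run on log2(TPM + 1), with 1 mean for each of the 3 groups, all 9 hearts in 1 fit, eBayes with a trend, two-sided tests and Benjamini-Hochberg adjustment over the 11236 genes tested. The pseudocount was 1 TPM. Calls needed an adjusted p below 0.05 and a log2 fold change beyond 1 in either direction. The fit was tested on simulated data. The mitochondrial share was compared by an exact permutation test (scipy 1.17.1), which for 3 against 3 cannot give a p under 0.1. Replicates are separate pigs, none shared between groups.

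Named were all called genes, the 12 genes with a symbol and the smallest p per direction among those past the unadjusted threshold without overlap, and the leading or passing members of 39 gene lists. Further list members, named for their role or for hearts that did not overlap, were picked after their values were seen. The genes compared, the lists and the rule were chosen with earlier results of these data known, and 3 further lists after seeing the values reported here. Lists are described by counts and medians only. Alternatives were another pseudocount, other filters, quantile normalization, median-of-ratios scaling, omission of the mitochondrially encoded genes, the 6 hearts alone, other variance models, array weights, each heart left out and, added after seeing the data, short RNA families left out. A few genes that meet the naming rule are not reported here.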

Additional observations from a re-analysis of the deposited data

How the results depend on the processing

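The adjusted counts of 2 higher and 6 lower genes depended on the processing. The higher count was 1 with no filter on low values and with the 6 hearts alone, 4 with median-of-ratios scaling and with mitochondrially encoded genes left out, and 32 with array weights. It lay between 1 and 4 with each heart left out. The lower count was 2 with no filter, 3 with the 6 hearts alone, 10 with quantile normalization and with robust eBayes, 15 with median-of-ratios scaling, 17 with mitochondrially encoded genes left out and 57 with array weights, and it lay between 1 and 12 with each heart left out. At the unadjusted threshold the higher count went from 150 to 76 with a mean of at least 5 TPM, to 230 without the mitochondrially encoded genes and to 262 with array weights. With each heart left out it ran from 117 (without pig 34) to 372 (without pig 31), and the lower count from 179 (without pig 31) to 375 (without pig 34). Genes entirely above Group 2 numbered 497, against 255 with a mean of at least 5 TPM, 876 with quantile normalization and 912 with median-of-ratios scaling. With a heart left out, fewer values need to be separate, and the counts of hearts not overlapping, higher, lay between 663 and 1869, and of hearts not overlapping, lower, between 1278 and 2568. The cause of the other shifts was not tested. None of the 28 called or rank-named genes changed sign under any alternative that could be fitted. Other named genes did, all with adjusted p above 0.05. With each heart left out, the log2 fold change ran from -1.11 to 0.93 for NPPA, from -0.63 to 0.99 for NPPB, from -0.66 to 0.074 for VWF, from -0.14 to 0.33 for BYSL, from -0.60 to 0.30 for ELANE, from -0.20 to 0.19 for AHR, from -0.10 to 0.22 for NQO1, from -0.25 to 0.055 for TNNI3, from -0.027 to 0.14 for TNNT2, from -0.13 to 0.11 for HSPA8 and from -0.063 to 0.13 for VCAN. It was -0.006 without the mitochondrially encoded genes and -0.044 with array weights for HSPA8, -0.18 with quantile normalization and -0.057 with array weights for TNNT2, 0.038 with median-of-ratios scaling for TNNI3, and 0.045 with that scaling, 0.042 with quantile normalization and 0.032 with array weights for AHR. With array weights it was 0.41 for ELANE. The depth of the libraries is unknown, and 3 hearts per group limit the precision. No paired analysis was possible because no pig or replicate number was shared between the groups.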

Other observations

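Ribosome assembly factors, a list written after several of its members had been seen among the lower genes, had a lower level in Group 3 in 49 of the 50 members tested, against 6549 of the 11236 genes overall. The median log2 fold change of the list was -0.66, beside -0.08 for all genes. In 30 of the 50 members every Group 3 heart lay below every Group 2 heart, where this held for 10.5% of all genes, and 6 passed the unadjusted threshold with the fold, none at an adjusted p under 0.05. That 6 became 1 without pig 34, 2 without pig 24 and 10 without pig 33. WDR12, a subunit of a complex that matures the large subunit RNA, had 15.2, 10.4 and 11.6 TPM in Group 2 and 6.52, 4.99 and 3.28 TPM in Group 3 (log2 fold change -1.20, adjusted p = 0.386). NPM3, a nucleolar chaperone, had 78.7, 55.0 and 45.3 TPM against 22.1, 38.5 and 15.9 TPM (log2 fold change -1.25, adjusted p = 0.356). FBL, the methyltransferase fibrillarin, had 164, 132 and 132 TPM against 85.7, 119 and 62.3 TPM (log2 fold change -0.71, adjusted p = 0.581), and NCL, nucleolin, had 470, 401 and 444 TPM against 259, 372 and 257 TPM (-0.59, adjusted p = 0.648). Among the members, BYSL alone had a positive log2 fold change, 0.06. The median stayed between -0.85 (without pig 33) and -0.52 (without pig 24) with each heart left out and was -0.43 with array weights and -0.57 with median-of-ratios scaling. Because members were seen before the list was written, these counts describe the 6 hearts and are no test.

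The 11 tested subunits of the RNA exosome, which trims ribosomal RNA, were chosen likewise. All 11 had negative log2 fold changes, with a median of -0.50, and 5 lay entirely below Group 2, beside 10.5% of all genes. Of the 11 subunits, 1 passed the unadjusted threshold downwards over all hearts, beside 2.05% of all genes, 2 without pig 29 or pig 33, and 0 without pig 24, pig 31 or pig 34. EXOSC4 had 25.9, 20.3 and 19.7 TPM against 7.55, 14.2 and 7.96 TPM (log2 fold change -1.11, adjusted p = 0.386). The ribosomal protein genes had a median of -0.06 over 29 genes. Of 7 tested genes around the aryl hydrocarbon receptor, also chosen after seeing values, CYP1A1 and TIPARP passed the unadjusted threshold upwards, beside 1.33% of all genes, while the receptor gene AHR (log2 fold change -0.03) and the target NQO1 (0.03) had overlapping hearts.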
